A study of Arabidopsis thaliana with 28 samples.

Results

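BAM7 (At2g45880) and BAM8 (At5g45300) were followed as transcripts through every line of the series, by the signal of probe set 266914_AT for BAM7 and 248997_AT for BAM8. These are 2 of the 22747 probe sets in the deposited table. The pairing of each probe set with its gene was given for this work. No table used here pairs the other probe sets with genes. RefSeq's gene table lists both loci as protein coding and gives At5g45300 the symbol BMY2 with BAM8 as a synonym. Both probe sets were chosen from their levels in the overexpression lines, with earlier results on all groups known. Their levels and differences are therefore descriptions, given with their spread and without a p-value.

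RNA came from whole shoots of Col-0 Arabidopsis thaliana at an age of 3 weeks, untreated and harvested 4 h into a 12 h light period. Each sample pooled 14 plants, and each genotype had 2 samples, on 1 array each. The 28 arrays fall into 14 groups: the mutants bam7, bam8 and bam7 bam8, 5 BAM7 lines (BAM7-DNA_Ox, BAM7-Cat_Ox, BAM7-Lig_Ox, BAM7-N_Ox and BAM7_Ox), 5 BAM8 lines with the same suffixes (BAM8-DNA_Ox, BAM8-Cat_Ox, BAM8-Lig_Ox, BAM8-N_Ox and BAM8_Ox), and wild type. Lines whose label ends in Ox are called overexpression lines here. The labels do not define the suffixes DNA, Cat, Lig and N. The promoter of the transgenes, the background they were put in, the number of independent transformants and the mutant alleles are not given in the sources used here.

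Beta-amylases release maltose from the ends of starch chains, and several of them do so in the chloroplast. BAM7 and BAM8 are set apart by an added DNA-binding domain of the BZR1 type, the domain of the transcription factors that answer to brassinosteroid hormones, and by their place in the nucleus. The series asks what their enzyme-like domain does in recognising DNA and in activating transcription. How much signal each line has at its own probe set is described here. It is no check on the labels, as both probe sets were chosen from their levels in the overexpression lines. Where their probes lie in the transcripts is not given either.

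Values are intensities on a linear scale, which were put on the log2 scale. Array medians lay between 23.5 and 25.8 intensity units and 25th percentiles between 6.78 and 8.37. Pearson r between the 2 arrays of a group ran from 0.990 to 0.997 over all probe sets, which are not independent of each other. The BAM7-Cat_Ox replicates stood apart, with 254 probe sets differing by 2-fold or more against 6 to 78 in the other groups. None of the 56 values of BAM7 and BAM8 lay under the 25th percentile of its own array, and the lowest stood at percentile 39.2. In whole shoots, less transcript per cell and fewer cells that hold it cannot be told apart. The number of arrays limits the precision. All comparisons with wild type share the same 2 wild type arrays. BAM7 and BAM8 are read by different probes, so the level of one is not set against the level of the other.

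The BAM7 transcript was far above wild type in 4 of the 5 lines labelled as BAM7 overexpressors, and below it in BAM7-N_Ox. Its signal was 1233 and 1232 intensity units in BAM7-DNA_Ox, 796 and 892 in BAM7-Lig_Ox, 670 and 193 in BAM7-Cat_Ox and 265 and 257 in BAM7_Ox, against 20.6 and 26.3 in wild type. Every array of these 4 lines exceeded both wild type arrays by a wide margin. On the log2 scale the means were 10.27 ± 0.0008 in BAM7-DNA_Ox, 9.72 ± 0.12 in BAM7-Lig_Ox, 8.49 ± 1.27 in BAM7-Cat_Ox, 8.03 ± 0.03 in BAM7_Ox and 4.54 ± 0.25 in wild type (SD, n = 2 each). The unsuffixed line thus had the lowest mean BAM7 transcript of the 4, though the BAM7-Cat_Ox array at 193 lay below both of its arrays. Over wild type the excess was 5.73 in BAM7-DNA_Ox (52.9-fold), 5.18 in BAM7-Lig_Ox (36.2-fold), 3.95 in BAM7-Cat_Ox (15.5-fold) and 3.49 in BAM7_Ox (11.2-fold), each with an SE of 0.33. In each of these 4 comparisons it was the highest difference of the 22746 probe sets. The arrays of the line lay above those of wild type at 16% of all probe sets in BAM7-DNA_Ox, 14.3% in BAM7-Lig_Ox, 15.9% in BAM7-Cat_Ox and 17.3% in BAM7_Ox.

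Set against BAM7_Ox, the DNA and Lig lines carried more BAM7 transcript. The difference was 2.24 in BAM7-DNA_Ox (4.72-fold) and 1.69 in BAM7-Lig_Ox (3.23-fold), both with an SE of 0.33 and with separate arrays. Across all probe sets, 14.7% were higher in BAM7-DNA_Ox and 27.7% higher in BAM7-Lig_Ox with separate arrays. BAM7-Cat_Ox did not separate from BAM7_Ox. One of its arrays lay above both BAM7_Ox arrays and the other below both, and the difference of 0.46 became -0.44 without BAM7-Cat_Ox replicate 1 and 1.36 without replicate 2. This gap between 2 pools of 14 plants, 1.79 on the log2 scale, set most of the spread of BAM7. The pooled SD was 0.36 with all 14 groups and 0.13 without BAM7-Cat_Ox, and a fit without that line gave every other BAM7 difference an SE of 0.13 in place of 0.33.

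The BAM8 transcript followed the same outline in the BAM8 lines but in another order. Its signal was 934 and 1067 intensity units in BAM8_Ox, 725 and 405 in BAM8-Cat_Ox, 352 and 391 in BAM8-DNA_Ox and 294 and 268 in BAM8-Lig_Ox, against 41.5 and 40.1 in wild type. The unsuffixed line was the highest here. Log2 means were 9.96 ± 0.14 in BAM8_Ox, 9.08 ± 0.59 in BAM8-Cat_Ox, 8.54 ± 0.11 in BAM8-DNA_Ox, 8.13 ± 0.09 in BAM8-Lig_Ox and 5.35 ± 0.03 in wild type (SD, n = 2 each). The excess over wild type was 4.61 in BAM8_Ox (24.5-fold), 3.73 in BAM8-Cat_Ox (13.3-fold), 3.19 in BAM8-DNA_Ox (9.10-fold) and 2.78 in BAM8-Lig_Ox (6.89-fold), each with an SE of 0.21. It was the highest difference of all probe sets in 3 of these comparisons and the third highest in BAM8-Cat_Ox. Separate arrays above wild type were found at 13.8% of all probe sets in BAM8_Ox, 12.6% in BAM8-Cat_Ox, 18.9% in BAM8-DNA_Ox and 18.4% in BAM8-Lig_Ox.

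All 3 of these suffixed BAM8 lines had less BAM8 transcript than BAM8_Ox, with no overlap of arrays. The difference from BAM8_Ox was -0.88 in BAM8-Cat_Ox, -1.43 in BAM8-DNA_Ox and -1.83 in BAM8-Lig_Ox, with an SE of 0.21 each. Separate arrays below BAM8_Ox were found at 18.4%, 33.6% and 32.9% of all probe sets in the same lines. The value of BAM8-Cat_Ox ranged from -1.30 without its replicate 1 to -0.46 without its replicate 2, whose signals differed by 0.84 on the log2 scale. In both Cat lines replicate 1 was the higher array, by the widest margin between replicates at either probe set.

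**Figure D1:**
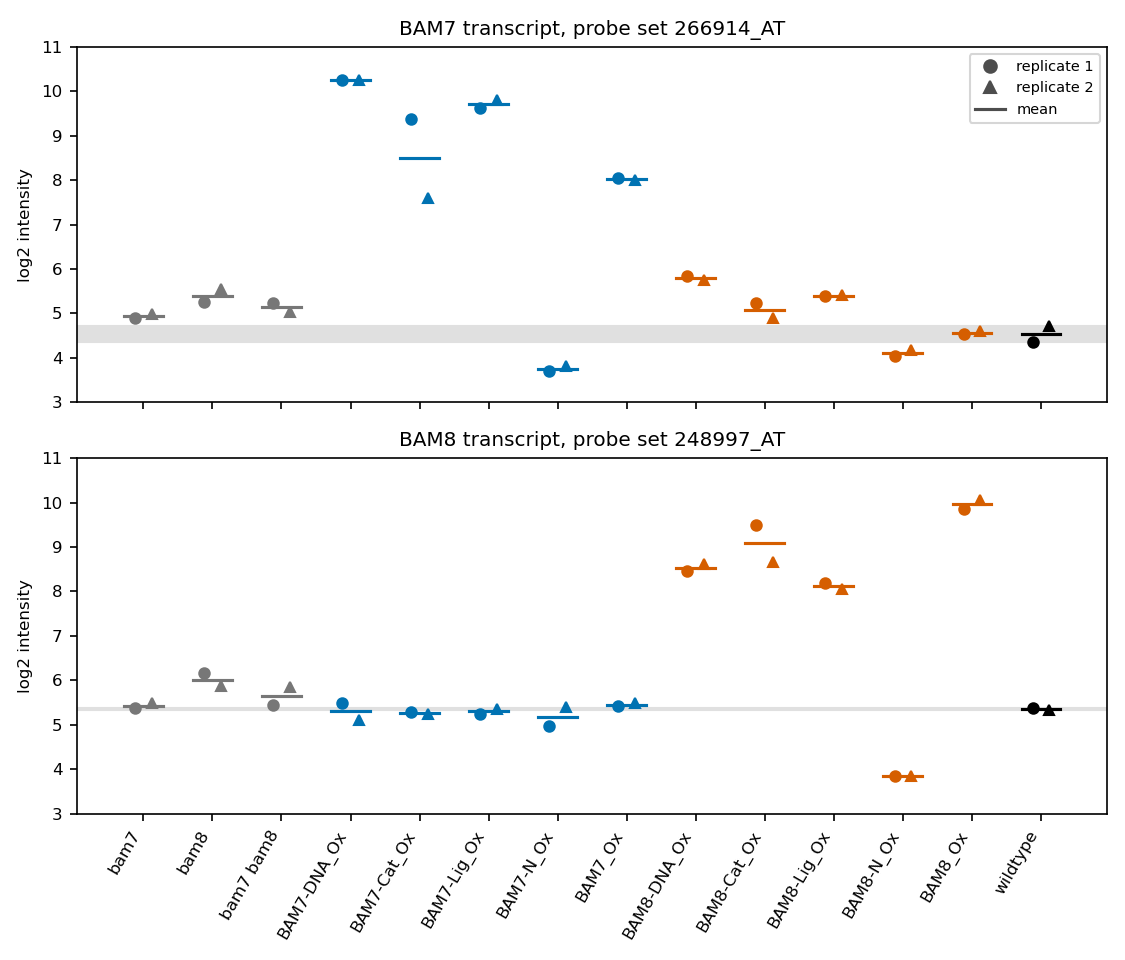
Log2 intensity of BAM7 (upper panel) and BAM8 (lower panel) on each of the 28 arrays, by group. Circles are replicate 1, triangles replicate 2 and short lines group means; blue marks lines labelled BAM7, orange lines labelled BAM8, grey the mutants and black wild type, whose range is the grey band. The 4 high groups of each gene are its own lines, and its own N line is the lowest group of all.

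Both N lines went against the word overexpression in their labels at their own probe set. In the line labelled BAM7-N_Ox the BAM7 signal was 12.98 and 14.02 intensity units, against 20.6 and 26.3 in wild type. In the line labelled BAM8-N_Ox the BAM8 signal was 14.4 on both arrays, against 41.5 and 40.1 in wild type. Each was the lowest of the 14 groups for its gene, on every array. BAM7 in BAM7-N_Ox was lower than wild type by -0.79 (SE 0.33; log2 mean 3.75 ± 0.08 against 4.54 ± 0.25, SD, n = 2 each). BAM8 in BAM8-N_Ox was lower by -1.50 (SE 0.21; 3.85 ± 0.0007 against 5.35 ± 0.03, SD, n = 2 each), which is a ratio of 0.353 to wild type. With 16 intensity units added before log2 the differences were -0.42 for BAM7 and -0.90 for BAM8, and how much of signals this low is background was not tested. Without that addition, 0.607% of all probe sets lay at least as far below wild type in BAM7-N_Ox as BAM7 did. In BAM8-N_Ox 0.0396% lay at least as far below as BAM8 did. Arrays lay below those of wild type at 39% of all probe sets in BAM7-N_Ox and at 41.2% in BAM8-N_Ox, so separate arrays in this direction were common in these lines. Against the unsuffixed lines the difference was -4.28 for BAM7 in BAM7-N_Ox and -6.11 for BAM8 in BAM8-N_Ox, each the lowest of all probe sets, where 18.6% and 38.4% of probe sets were lower with separate arrays. Which part of each transcript the probes read, and whether the N transgenes hold that part, is not given in the sources used here.

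The mutants did not have less signal from their own gene. In the arrays labelled bam7, BAM7 stood at 30.0 and 31.5 intensity units, against 20.6 and 26.3 in wild type. In the arrays labelled bam8, BAM8 stood at 71.8 and 58.3, against 41.5 and 40.1 in wild type. In bam7 bam8, BAM7 was at 37.8 and 32.9 and BAM8 at 43.4 and 57.9. All of these arrays were above both wild type arrays. Such separation was common. The bam8 arrays lay above those of wild type at 14.1% of all probe sets, the bam7 arrays at 15.9% and those of the double mutant at 17.1%. After cyclic loess the BAM8 signals of the double mutant overlapped those of wild type. The differences from wild type were 0.40 for BAM7 in bam7 (SE 0.33; 4.94 ± 0.05 against 4.54 ± 0.25, SD, n = 2 each) and 0.67 for BAM8 in bam8 (SE 0.21; 6.02 ± 0.21 against 5.35 ± 0.03, SD, n = 2 each). In bam7 bam8 they were 0.60 for BAM7 (SE 0.33) and 0.30 for BAM8 (SE 0.21). At these probe sets the mutants thus showed no loss of signal from the gene named in the label. Where the probes lie relative to the mutations is not given in the sources used here.

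The arrays labelled bam8 also had more BAM7 signal. On them BAM7 stood at 38.5 and 46.6 intensity units, against 20.6 and 26.3 in wild type. The difference was 0.86 (1.82-fold; SE 0.33 with all groups and 0.13 without BAM7-Cat_Ox in the fit; 5.40 ± 0.20 against 4.54 ± 0.25, SD, n = 2 each). It was the seventh highest of all 22746 probe sets in this comparison, and BAM8 itself was the 45th. In the arrays labelled bam7, by contrast, BAM8 stood at 41.5 and 44.7, against 41.5 and 40.1 in wild type, a difference of 0.08 (SE 0.21) that 30.5% of probe sets matched or passed. Both probe sets were above wild type with separate arrays in all 3 mutants, as were 15.9% of all probe sets in bam7, 14.1% in bam8 and 17.1% in the double mutant. For BAM8 in bam7 that separation rested on a margin of 0.01 intensity units and was lost after cyclic loess or subtraction of array medians. For BAM8 in bam7 bam8 it was lost after cyclic loess.

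In bam7 bam8 both mean signals lay between those of the single mutants bam8 and bam7. Compared with bam8, bam7 bam8 was lower by -0.26 at BAM7 (SE 0.33) and by -0.37 at BAM8 (SE 0.21), with separate arrays, as at 17.9% of all probe sets. Compared with bam7, it was higher by 0.20 at BAM7 with separate arrays, as at 13% of all probe sets, and by 0.22 at BAM8 with overlapping arrays. The difference of the arrays labelled bam7 bam8 from wild type, minus the sum of those labelled bam7 and bam8, was -0.67 for BAM7 (SE 0.46, or 0.18 without BAM7-Cat_Ox in the fit) and -0.45 for BAM8 (SE 0.29).

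BAM7 also varied among the BAM8 overexpression lines, where no BAM7 transgene is named in the label. Its signal was 57.4 and 53.8 intensity units in BAM8-DNA_Ox, 41.9 and 42.5 in BAM8-Lig_Ox, 37.9 and 29.7 in BAM8-Cat_Ox, 16.5 and 18.1 in BAM8-N_Ox and 23.4 and 24.2 in BAM8_Ox, against 20.6 and 26.3 in wild type. The DNA, Lig and Cat lines lay above both wild type arrays, BAM8_Ox lay within their range and BAM8-N_Ox below it. Of all probe sets, 18.9%, 18.4% and 12.6% were above wild type with separate arrays in the DNA, Lig and Cat lines, and 41.2% were below it in BAM8-N_Ox. The differences from wild type were 1.25 in BAM8-DNA_Ox (2.39-fold), 0.86 in BAM8-Lig_Ox (1.81-fold), 0.53 in BAM8-Cat_Ox (1.44-fold), -0.43 in BAM8-N_Ox and 0.03 in BAM8_Ox, each with an SE of 0.33 with all groups and 0.13 without BAM7-Cat_Ox in the fit. BAM7 was the fifth highest difference of all probe sets in BAM8-DNA_Ox and the 32nd in BAM8-Lig_Ox, while 1.42% of probe sets were as far up in BAM8-Cat_Ox and 34.7% in BAM8_Ox. In BAM8-N_Ox 5.14% were as far down.

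Against BAM8_Ox the differences were close to those from wild type, since its BAM7 mean lay 0.03 from that of wild type. This comparison uses no wild type array but the same arrays of the other BAM8 lines, so its pattern is not a separate result. BAM7 exceeded its BAM8_Ox level by 1.22 in BAM8-DNA_Ox (2.34-fold), 0.83 in BAM8-Lig_Ox (1.78-fold) and 0.50 in BAM8-Cat_Ox (1.41-fold), with separate arrays each time, and was lower by -0.46 in BAM8-N_Ox, where 38.4% of all probe sets were lower with separate arrays. With separate arrays, 18.4%, 17.9% and 12.1% of all probe sets were higher in the DNA, Lig and Cat lines in the same comparisons. The BAM7 difference was the tenth highest of all probe sets in BAM8-DNA_Ox. The 2 BAM8 lines with the highest BAM7 signal, DNA and Lig, were those with the least BAM8 transcript among the 4 lines above wild type, and BAM8_Ox, with the most BAM8, had the least BAM7 of these 4. The order was not strict, as BAM8-Lig_Ox had less BAM8 than BAM8-DNA_Ox but also less BAM7. It did not extend to BAM8-N_Ox, which had the lowest BAM8 (log2 mean 3.85) and also the lowest BAM7 of the BAM8 lines (4.11). With 4 lines no correlation was computed.

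BAM8 stayed close to wild type in the BAM7 lines. Its signal across their 10 arrays lay between 31.5 and 44.8 intensity units, against 41.5 and 40.1 in wild type. The differences from wild type were -0.05 in BAM7-DNA_Ox, -0.09 in BAM7-Cat_Ox, -0.05 in BAM7-Lig_Ox, -0.17 in BAM7-N_Ox and 0.10 in BAM7_Ox, each smaller than its SE of 0.21. A fit without BAM8-Cat_Ox gave an SE of 0.15, which the difference in BAM7-N_Ox passed in size and the others did not. Arrays overlapped with wild type in 3 of the 5 lines, lay just above in BAM7_Ox, though not after cyclic loess or subtraction of array medians, and just below in BAM7-Cat_Ox, where 12.1% of all probe sets were below wild type with separate arrays. BAM7 transcript up to 52.9-fold over wild type was thus not accompanied by a BAM8 difference beyond the spread between arrays. Differences near or below an SE of 0.21 were not detectable with 2 arrays a group.

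**Figure D2:**
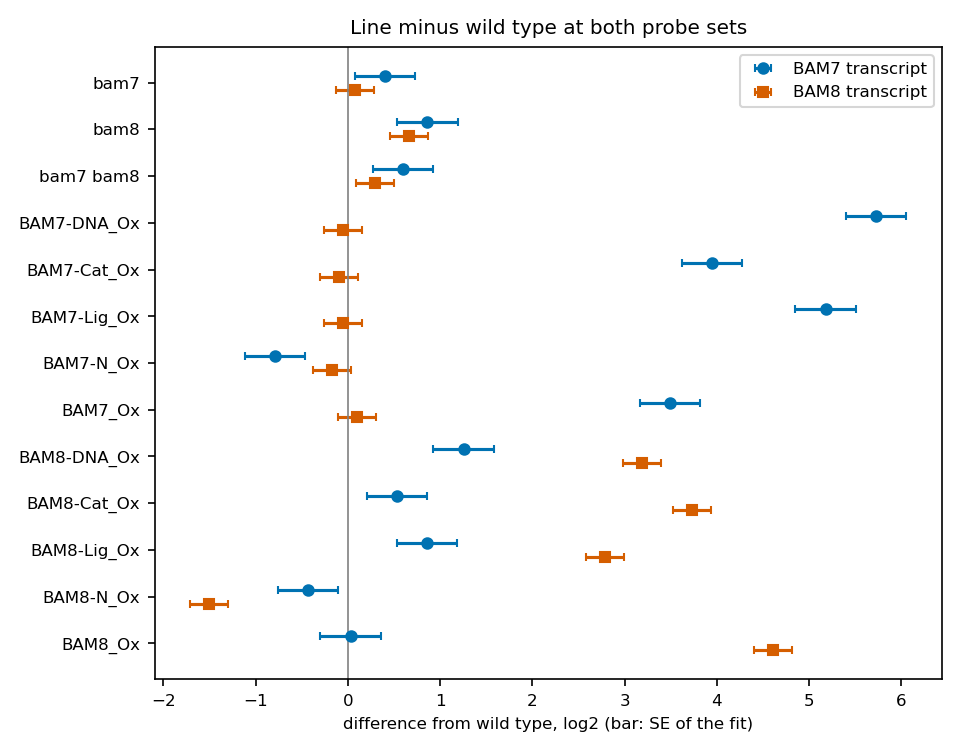
Difference of each line from wild type on the log2 scale for BAM7 (blue circles) and BAM8 (orange squares), with the SE of the fit to all 28 arrays as the bar and a line at 0. BAM8 lies between -0.17 and 0.10 in all 5 BAM7 lines, whereas BAM7 ranges from -0.43 in BAM8-N_Ox to 1.25 in BAM8-DNA_Ox.

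Ordered by mean, BAM7 ran from BAM7-DNA_Ox through BAM7-Lig_Ox, BAM7-Cat_Ox and BAM7_Ox to BAM8-DNA_Ox, bam8, BAM8-Lig_Ox, bam7 bam8, BAM8-Cat_Ox, bam7, BAM8_Ox, wild type, BAM8-N_Ox and BAM7-N_Ox. The widest gap, 2.23 on the log2 scale, lay between BAM7_Ox and BAM8-DNA_Ox. Neighbours with overlapping arrays were BAM7-Cat_Ox and BAM7_Ox, bam8 and BAM8-Lig_Ox, bam7 bam8 and BAM8-Cat_Ox, BAM8-Cat_Ox and bam7, and BAM8_Ox and wild type. Of the 13 lines, 10 lay above wild type on every array, 1 overlapped and 2 lay below. Depending on the line, 12.6% to 22% of all probe sets lay above wild type with separate arrays and 12.1% to 41.2% below. All 13 lines are set against the same 2 wild type arrays, at BAM7 and at BAM8, so these are not separate results. For BAM8 the order was BAM8_Ox, BAM8-Cat_Ox, BAM8-DNA_Ox, BAM8-Lig_Ox, bam8, bam7 bam8, BAM7_Ox, bam7, wild type, BAM7-Lig_Ox, BAM7-DNA_Ox, BAM7-Cat_Ox, BAM7-N_Ox and BAM8-N_Ox. From bam7 bam8 down to BAM7-N_Ox every pair of neighbours differed by less than the pooled SD of 0.22, and below that a gap of 1.33 set BAM8-N_Ox apart. For BAM8, 8 lines lay above wild type on every array, 3 overlapped and 2 lay below. After cyclic loess 5 lay above and after subtraction of array medians 6, as bam7 and BAM7_Ox overlapped wild type under both and bam7 bam8 under cyclic loess.

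The signal of a line at its own probe set was set beside the number of probe sets that differed from wild type by 2-fold or more with separate arrays. The N lines, with the weakest signal at their own probe set, had the highest numbers. Whether these probe sets read the N transgenes is not given, so the transcript level of those transgenes is not known. BAM7-N_Ox had 169 such probe sets (0.743% of all) and BAM8-N_Ox 138 (0.607%). Among the lines with a raised own signal, BAM8-Cat_Ox had 58 (0.255%), BAM8_Ox 50 (0.22%), BAM8-DNA_Ox 29 (0.127%) and BAM8-Lig_Ox 16 (0.0703%). BAM7-Cat_Ox had 31 (0.136%), BAM7-DNA_Ox 18 (0.0791%), BAM7-Lig_Ox 15 (0.0659%) and BAM7_Ox 10 (0.044%). Of the mutants, bam7 had 16 (0.0703%), bam8 had 7 (0.0308%) and bam7 bam8 had 24 (0.106%).

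These numbers depended on single arrays. Without wild type replicate 2 they were 251 in BAM7-N_Ox, 285 in BAM8-N_Ox, 102 in BAM8-Cat_Ox, 98 in BAM8_Ox, 118 in BAM8-DNA_Ox and 87 in BAM8-Lig_Ox. In the other BAM7 lines they were 77 in BAM7-Cat_Ox, 69 in BAM7-DNA_Ox, 49 in BAM7-Lig_Ox and 87 in BAM7_Ox, while bam7 had 98, bam8 had 52 and bam7 bam8 had 78. BAM7-Cat_Ox reached 228 with 1 of its own arrays left out, more than the 169 of BAM7-N_Ox with all arrays. With all arrays and without either wild type array, both N lines had more than the other 11 lines.

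**Figure D3:**
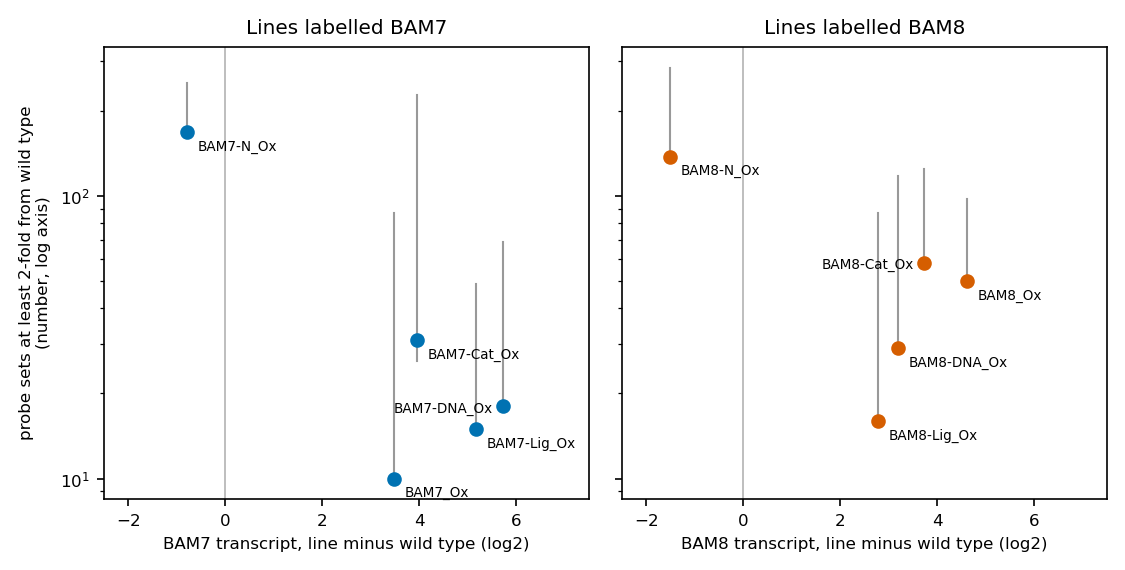
Number of probe sets at least 2-fold from wild type with separate arrays (log axis) against the difference from wild type at the line's own probe set (log2), for the 5 BAM7 lines (left) and the 5 BAM8 lines (right). Whether these probe sets read the N transgenes is not given. Dots use all arrays and grey lines span the numbers with 1 array left out; BAM7-N_Ox at -0.79 with 169 probe sets and BAM8-N_Ox at -1.50 with 138 lie at the upper left of their panels.

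Among the 937 probe sets whose group means spanned at least 1 on the log2 scale, those most like each gene were found by Pearson r over the 14 group means. For BAM8 they were 264580_AT (r = 0.885), 260221_AT (0.871), 263595_AT (0.830), 250666_AT (0.815) and 253506_AT (0.791). For BAM7 they were 258201_AT (0.799), 254265_S_AT (0.705), 254805_AT (0.704), 257264_AT (0.704) and 267165_AT (0.693). The 14 means share the wild type and the mutants, and the 5 lines that carry each gene dominate the likeness. Over the 9 groups outside the BAM8 lines, the 5 named for BAM8 had r between -0.174 and 0.291 with it. Over the 9 groups outside the BAM7 lines, the 5 named for BAM7 had r between 0.055 and 0.505.

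The probe sets like BAM8 were highest in BAM8_Ox or another BAM8 line. They were chosen for likeness to BAM8, which is highest in these lines, so neither this nor their order within the lines is a separate result. The group means of 263595_AT on the log2 scale were 6.76 in BAM8_Ox, 6.45 in BAM8-Cat_Ox, 6.29 in BAM8-DNA_Ox, 6.27 in BAM8-Lig_Ox and 5.10 in BAM8-N_Ox, against 5.85 in wild type. It kept the order that BAM8 has within these lines, N line included. Probe set 264580_AT was at 4.10 in BAM8_Ox and 4.05 in BAM8-Cat_Ox, against 2.87 in wild type, and at 3.02 in BAM8-DNA_Ox and 3.33 in BAM8-Lig_Ox. It lay under the 25th percentile of the array on 21 of 28 arrays, both of wild type included, and how much of its signal there is background was not tested. Probe set 250666_AT was at 5.28 in BAM8-DNA_Ox, 5.06 in BAM8_Ox and 4.88 in BAM8-Cat_Ox, against 3.95 in wild type, but at 3.50 in BAM8-Lig_Ox. For BAM7 the likeness was weaker. Probe set 258201_AT was at 4.78 in BAM7-DNA_Ox, 4.58 in BAM7-Cat_Ox, 4.43 in BAM7-Lig_Ox and 4.39 in BAM7_Ox, against 4.27 in wild type, a range far narrower than that of BAM7. No level is compared between probe sets, and no gene name is given to them.

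**Figure D4:**
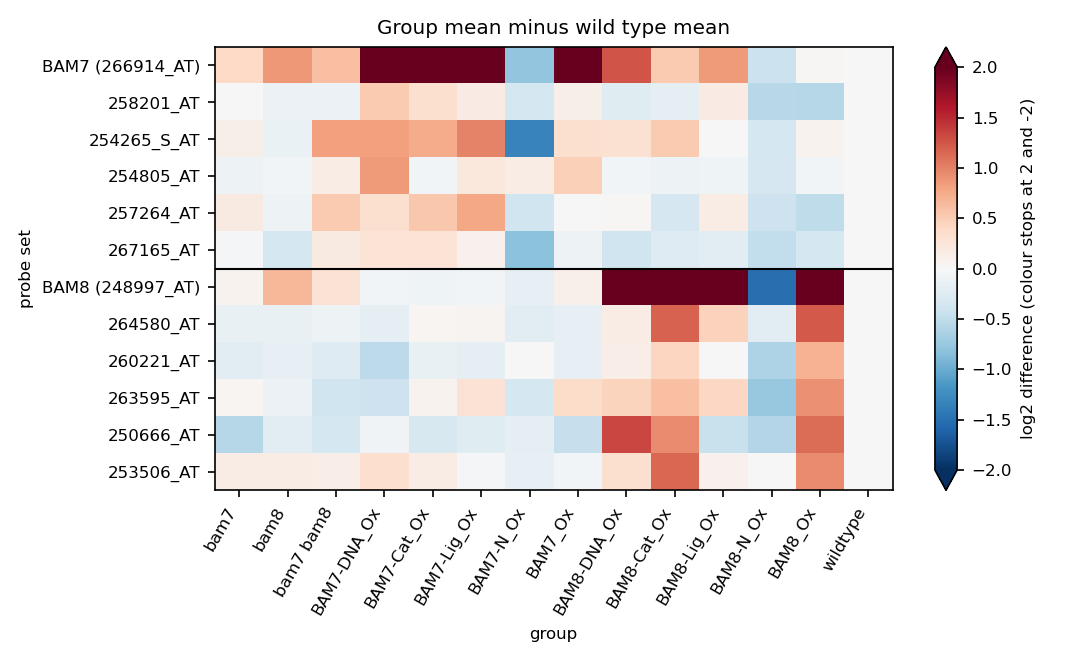
Group mean minus wild type mean (log2, colour) for BAM7 and the 5 probe sets most like it (above the line) and for BAM8 and the 5 most like it (below the line), by group, with wild type at 0. Colours stop at 2 and -2, which BAM7 passes in 4 of its own lines and BAM8 in 4 of its own, while no other probe set shown passes 2.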

How the data were processed

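The authors deposited 1 intensity for each probe set on each array, linear and between 2.89 and 22277. Per the submitters' processing notes they used RMA, for which no version is given. That the values are the antilog of its log2 output is inferred from their range. Detection calls were not used here.

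The 22747 probe sets include 1 control, which was dropped. The other 22746 were put on the log2 scale and fitted together, 1 mean per group over 28 arrays, with limma 3.58.1 in R 4.3.3 (14 residual degrees of freedom and 3.67 prior ones). SEs come from this fit, SDs from the 2 arrays of a group. Nothing in the labels says whether the 2 pools of a group were grown apart, beyond calling them biological replicates. A group was called separate where all its arrays lay outside those of the other. The fit was tested on simulated data. Plots used matplotlib 3.10.9 with Python 3.11.15.

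The members and lists were chosen with earlier results of these data known. Named are BAM7, BAM8 and, per gene, the 5 probe sets with the highest r. Counts over 27 related loci and 9 tissue markers, a promoter search and protein sequences were not run, since no table used here pairs them with probe sets or holds the sequences. The shoot label was therefore not checked against markers.

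Same-numbered arrays showed no deviation common to all groups: their deviations correlated with a median r of 0.012 over 91 pairs of groups (-0.381 to 0.434), and 24 exceeded 0.1. Whether some groups shared a batch was not tested, as the numbers may be arbitrary within a group. Alternatives were cyclic loess, array medians, 16 intensity units added before log2, a replicate block and leaving out each array. Chosen after seeing the data were fits without a Cat line, the 2-fold numbers and their alternatives, and the alternatives for the order of levels.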

Additional observations from a re-analysis of the deposited data

Results flagged for a closer look

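In 4 of 8 pairs of effects examined, every array moved one way in one setting and the opposite way in the other, and none of these differences was tested. How many of all probe sets do the same was not counted. Separate arrays in the direction seen were common in the comparisons of these 4 pairs, at 14.7% to 33.6% of all probe sets in each. The DNA suffix went with more own transcript in BAM7 (2.24 for BAM7-DNA_Ox minus BAM7_Ox) and with less in BAM8 (-1.43 for BAM8-DNA_Ox minus BAM8_Ox). The Lig suffix gave the same contrast, 1.69 for BAM7-Lig_Ox minus BAM7_Ox and -1.83 for BAM8-Lig_Ox minus BAM8_Ox. The pairs compare transgenic lines whose number of transformants is not given, and they read different probe sets.

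BAM7 signal was higher in the arrays labelled bam7 than in wild type (0.40) and lower in those labelled bam7 bam8 than in those labelled bam8 (-0.26). BAM8 gave 0.0775 and -0.37 in the same comparisons, and its arrays in bam7 overlapped those of wild type after cyclic loess or subtraction of array medians. The SE is 0.33 for BAM7, or 0.13 without BAM7-Cat_Ox in the fit, and 0.21 for BAM8, or 0.15 without BAM8-Cat_Ox in the fit. The mutants showed no loss of signal at the gene named in the label, and where the probes lie relative to the mutations is not given in the sources used here.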

How the results depend on the processing

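Cyclic loess and array medians moved none of the 42 differences of BAM7 and BAM8 beyond the pooled SD of their gene and changed no sign. With the replicate block every value stayed as it was, for example 5.73 for BAM7 in BAM7-DNA_Ox. This was fixed by the design, since each group has 1 array of each replicate number and the block cannot change a difference. Leaving out 1 array at a time moved 8 of 168 values, all in the Cat lines: 3.05 to 4.85 for BAM7 in BAM7-Cat_Ox against wild type and -0.44 to 1.36 against BAM7_Ox, 3.31 to 4.15 for BAM8 in BAM8-Cat_Ox against wild type and -1.30 to -0.46 against BAM8_Ox. A value counted as moved when it shifted by more than the pooled SD of its gene, which for BAM7 is 0.36, or 0.13 without BAM7-Cat_Ox. Smaller shifts were not counted. BAM7 in bam7 against wild type went from 0.40 to 0.23 without wild type replicate 1 and to 0.58 without wild type replicate 2. Leaving out 1 array changed the sign of 5 values. Adding 16 intensity units, which shrinks differences by construction, moved 14 of 42 and changed no sign. BAM7 against wild type became 4.99 in BAM7-DNA_Ox, 4.45 in BAM7-Lig_Ox, 3.27 in BAM7-Cat_Ox, 2.82 in BAM7_Ox, -0.42 in BAM7-N_Ox and 0.86 in BAM8-DNA_Ox. Against the unsuffixed line it became 0.85 in BAM8-DNA_Ox and -3.23 in BAM7-N_Ox. BAM8 against wild type became 4.16 in BAM8_Ox, 3.30 in BAM8-Cat_Ox, 2.77 in BAM8-DNA_Ox, 2.39 in BAM8-Lig_Ox and -0.90 in BAM8-N_Ox, and -5.06 in BAM8-N_Ox against BAM8_Ox. The number of lines above wild type at BAM8 was 5 of 13 after cyclic loess and 6 after subtraction of array medians, against 8 (8 to 9 with 1 array left out). The lines that changed had been above by narrow margins. Their lower arrays were at 41.5 intensity units in bam7, 42.57 in BAM7_Ox and 43.38 in bam7 bam8, against 41.49 on the higher wild type array. Why the normalizations shifted them was not tested. Alternatives for counts of related genes were not run, as those genes could not be matched to probe sets. Levels of 13 to 18 intensity units in the N lines lie above the 25th percentile of their arrays, but without detection calls how much of them is background was not tested.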
